A study of Sus scrofa with 8 samples.

Results

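The mitochondrial ribosomal proteins were read in the back muscle of Korean native pigs and Yorkshire pigs as the genes whose symbol starts with MRPL or MRPS followed by a number. The array held 58 such genes, 36 named MRPL for the large subunit of the mitochondrial ribosome and 22 named MRPS for the small subunit, of 6765 genes that had a probe set with exactly 1 symbol. A gene with several probe sets was represented by the probe set of highest mean signal. The tissue was longissimus dorsi, a long back muscle, cut at the level of the seventh to the ninth rib. Each breed had 4 biological replicates, at an age of 7 months for Korean native pigs and of 6 months for Yorkshire pigs, and the labels say that all were raised alike. Breed and age cannot be told apart, and the sex of the animals was not used here.

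Mitochondria carry their own ribosome, which translates the few messenger RNAs of the mitochondrial genome into core subunits of the respiratory chain and of ATP synthase. The ribosomal RNAs come from the mitochondrial genome, while all of the protein parts are encoded in the nucleus, made in the cytosol and imported. The small subunit binds and decodes the messenger RNA, and the large subunit joins the amino acids and releases the new chain at the inner membrane. Skeletal muscle depends on this machinery because its oxidative fibres are rich in respiratory chain complexes.

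Values were linear signals of 1 array per animal, scaled by the authors to a common level per array. All 7 of the skeletal muscle markers that were measured, of 9 fixed, had signals above the 95th percentile of the negative control probe sets, a signal of 91.5, on all 8 arrays. Their summed signal was 345576 to 528911 in Korean native pigs and 447456 to 712104 in Yorkshire pigs, and 6 of the 7 had a lower mean log2 signal in Korean native pigs, with a median log2 difference, Korean native pig minus Yorkshire, of -0.32. All 5 slow fibre markers were lower too, with a median of -0.24, as were both measured smooth muscle markers, with -0.37. Markers of other cells were also present: the summed signal of 3 adipocyte markers was 1585 to 3688 in Korean native pigs and 2695 to 6104 in Yorkshire pigs, that of 4 connective tissue markers was 7764 to 12669.9 in Korean native pigs and 9964 to 16439.5 in Yorkshire pigs, and that of 4 leukocyte markers was 347.6 to 1836 and 611.9 to 1139. The median log2 differences were -0.58 for adipocyte, -0.26 for connective tissue, 0.07 for leukocyte, 0.05 for endothelium and 0.07 for red cell markers. These medians leave out markers too dim to test, and cover 2 of the 4 leukocyte and 3 of the 4 endothelium markers. Only 1 of the 3 adipocyte markers and 1 of the 4 leukocyte markers was above the negative control level on all arrays, and no marker of any list passed the adjusted threshold. Of the 2 nerve markers measured, S100B had a log2 difference of -0.17 and MBP, a myelin protein, had 1.03, the latter at an unadjusted p under 0.05 (limma). The signals of MBP were 548.2 to 1187 in Korean native pigs and 189.5 to 491.4 in Yorkshire pigs. Their part in the results was not tested, and in pieces of whole muscle fewer cells of a type and less RNA per cell cannot be told apart. The arrays differed in ways that cut across breed. The hybridisation controls were bright on the arrays of replicates 1 and 3 of both breeds (log2 13.39 to 13.65) and dim on those of replicates 2 and 4 (12.45 to 12.76). The log2 ratio of 3' to 5' control probe sets, a sign of RNA quality, was 3.33 in Korean native pig 1 and 3.03 in Yorkshire 3, against 0.87 to 1.73 in the other 6 animals.

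No mitochondrial ribosomal protein gene differed between the breeds past the threshold. With limma on log2(signal + 32) and Benjamini-Hochberg adjustment over all 14399 probe sets tested, 0 of the 58 genes had an adjusted p under 0.05, and each of the 58 had an adjusted p of 0.999. The same fit called 0% of all probe sets, with a smallest adjusted p of 0.281 on the whole array. At an unadjusted p under 0.05, limma found 0 of the 58 genes, against 3.43% of all 5331 genes tested and 3.96% of all probe sets, 2.01% higher in Korean native pigs and 1.95% lower. The smallest unadjusted p among the members was 0.0521. All 58 genes had passed the filter on low signal, so none was lost before the test.

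The typical breed difference of a member was smaller than that of a gene on the array. A change is the log2 difference, Korean native pig minus Yorkshire, and a log2 of 1 is a 2-fold difference. The median size of a change, whatever its sign, was 0.11 for the members and 0.17 for all genes tested, and the median standard errors were 0.22 and 0.26. The 95% interval of the change lay inside 2-fold in either direction for 54 of the 58 genes, against 75.6% of all genes tested. Inside 1.5-fold it lay for 23 of the 58 genes and for 1236 of the 5331. The members were brighter than most probe sets, and bright probe sets had narrower intervals. Among the 3099 probe sets of like brightness, those between the quartiles of the members' mean log2 signal, the median size of a change was 0.16, and the interval lay inside 2-fold for 2650 and inside 1.5-fold for 952. The median size of a change was 0.12 for 63 nuclear respiratory chain genes and 0.07 for 61 cytosolic ribosomal protein genes. Their intervals lay inside 2-fold for 59 and 60 genes. The 4 members whose interval reached beyond 2-fold were MRPL4, MRPL14, MRPL36 and MRPL54, and all 22 MRPS genes stayed inside it.

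Subunits are counted by symbol throughout, so the MRPS genes include MRPS30 and MRPS36. Among the 36 MRPL genes, 18 had a higher mean in Korean native pigs and 18 a lower one. Their median change was 0.00, with a range from -0.25 to 0.73. Of the 22 MRPS genes, 6 were higher and 16 lower, with a median of -0.03 and a range from -0.32 to 0.33. Over all probe sets tested the median change was 0.00, with 7295 higher and 7104 lower. The split of signs among so small changes moved with the scaling. When each array was centred on its median, 24 MRPL genes were higher and 12 lower, 13 MRPS genes were higher and 9 lower, and over the array 8852 probe sets were higher and 5547 lower. The medians were then 0.08 for MRPL, 0.05 for MRPS and 0.08 for all probe sets. With quantile normalisation 17 MRPL genes were higher and 19 lower, and 4 MRPS genes were higher and 18 lower. The members were also split into proteins with a counterpart in the bacterial ribosome and those found only in mitochondria. Among the 34 members of bacterial descent 13 were higher and 21 lower, with a median of -0.02. Among the 23 specific to mitochondria 10 were higher and 13 lower, with a median of -0.03. MRPS36, best known as a part of the oxoglutarate dehydrogenase complex, was left out of both classes and had a change of 0.01.

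**Figure D1:**
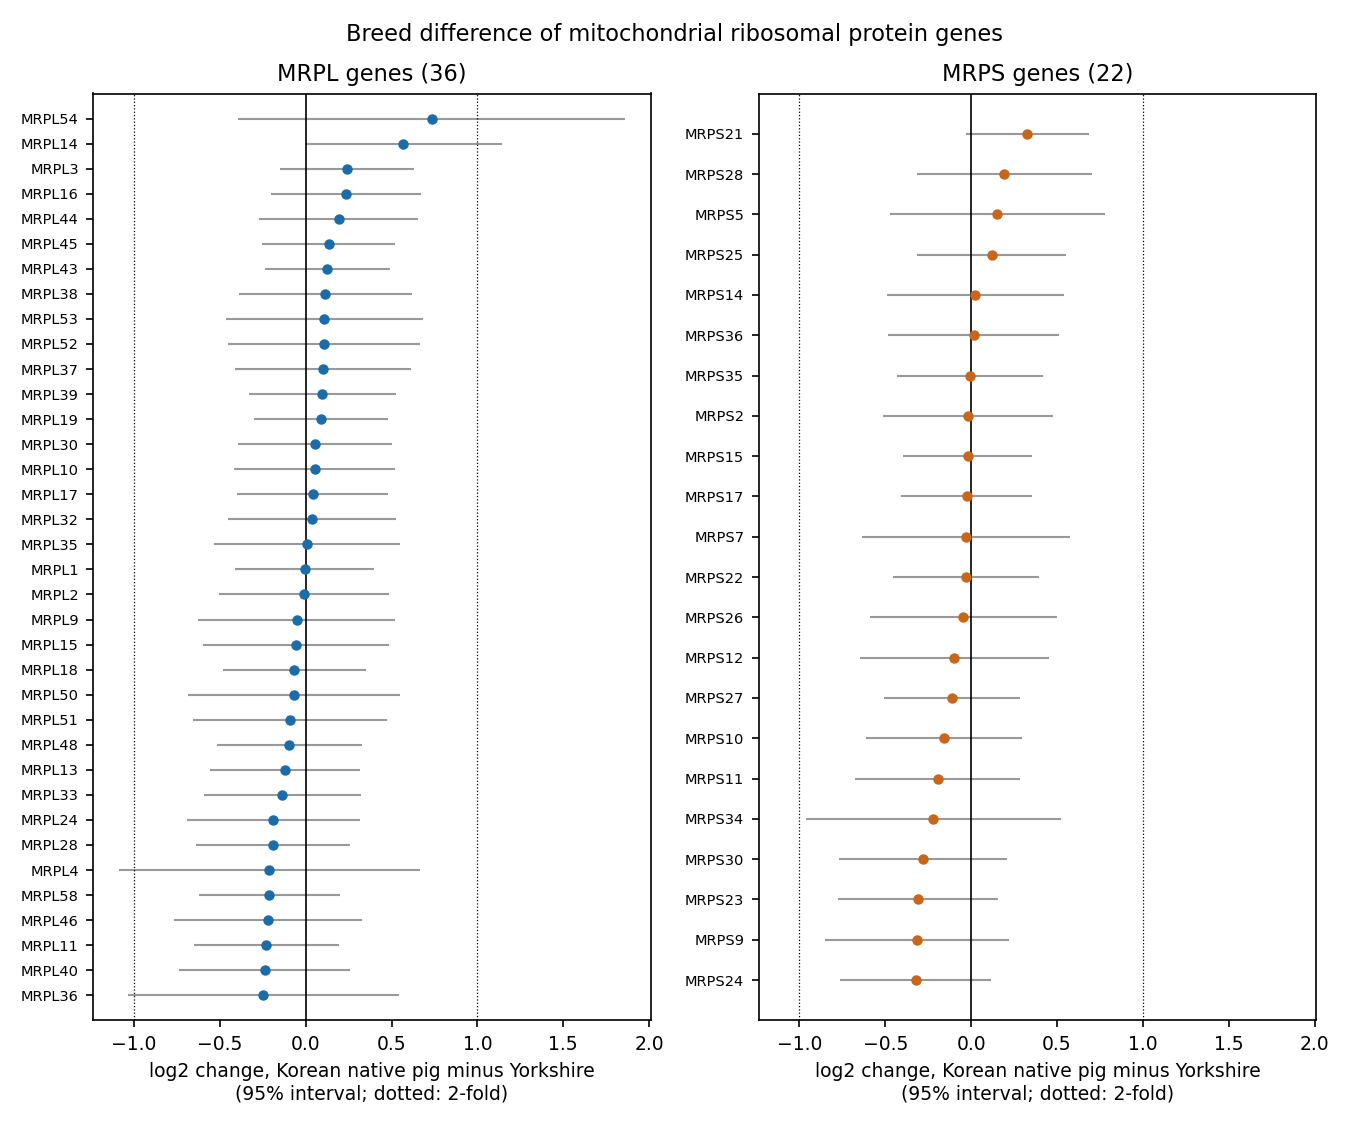
The change of each gene, as the log2 difference Korean native pig minus Yorkshire on the horizontal axis, for the 36 MRPL genes (left) and the 22 MRPS genes (right), ordered by value. Points are limma estimates from 4 animals per breed, bars are 95% intervals and dotted lines mark 2-fold; every interval crosses 0, and those of MRPL54, MRPL14, MRPL4 and MRPL36 reach past 2-fold.

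The large subunit gene of smallest p was MRPL14, whose protein lies at the face of the large subunit that meets the small one. Its signals in Korean native pigs 1 to 4 were 1639, 2687, 1748 and 1651, and in Yorkshire pigs 1 to 4 they were 1542, 1267, 772 and 1685. Korean native pig 2 was the highest and Yorkshire 3 the lowest, and the breeds overlapped because Yorkshire 4 exceeded both Korean native pig 1 and Korean native pig 4. The means were 1931 ± 506.4 and 1317 ± 402.5 (SD, n = 4 each). The change was 0.57 with a standard error of 0.26 and a 95% interval from -0.01 to 1.14 (limma, unadjusted p = 0.0521, adjusted p = 0.999). It was 0.62 within the arrays of bright hybridisation controls and 0.52 within the dim ones. Without Yorkshire 3, one of the animals with a high 3' to 5' ratio, it was 0.34.

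MRPL54, a protein of the large subunit with no bacterial counterpart, had the largest estimate and also the largest error. Its signals were 187.5, 166.4, 209.2 and 210.3 in Korean native pigs and 14.3, 63.3, 234.7 and 249.8 in Yorkshire pigs. The Korean native pigs were close together, while Yorkshire 1 and Yorkshire 2 were below the negative control level and Yorkshire 3 and Yorkshire 4 were the highest of all. The change was 0.73 with a standard error of 0.52 and an interval from -0.39 to 1.86 (limma, unadjusted p = 0.181). Without Yorkshire 1 it was 0.22, and without Yorkshire 4 it was 1.09. At these low signals the added 32 shrinks the change.

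The other large subunit genes with the smallest p on the higher side were MRPL3, MRPL16 and MRPL44. MRPL3 had signals of 2031, 2444, 2859 and 2070.3 in Korean native pigs and 1919, 2170.5, 2027 and 1759.6 in Yorkshire pigs, with Korean native pigs 2 and 3 above all Yorkshire pigs and the rest mixed. Its change was 0.24 with a standard error of 0.18 and an interval from -0.15 to 0.63. MRPL16, the counterpart of a bacterial protein near the peptide bond centre, had the same estimate of 0.24 with a standard error of 0.20. MRPL44, which resembles RNase III and whose inherited loss causes cardiomyopathy, as does that of MRPL3, had 0.19 with a standard error of 0.21. The interval of each of these estimates included 0.

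On the lower side stood MRPL11, MRPL58, MRPL40, MRPL28 and MRPL46. MRPL11 forms part of the stalk base where translation factors dock. Its signals were 1448, 1732, 1229 and 1398 in Korean native pigs and 1383, 1935, 1549 and 1991 in Yorkshire pigs, with Yorkshire 2 and Yorkshire 4 above every Korean native pig. The change was -0.23 with a standard error of 0.19 and an interval from -0.65 to 0.19. MRPL58, also called ICT1, is a peptidyl-tRNA hydrolase of the release factor family built into the ribosome, and its change was -0.21 with a standard error of 0.19. MRPL40 and MRPL46 belong to the central protuberance, the crest of the large subunit, and had -0.24 (standard error 0.23) and -0.22 (standard error 0.25). Without Yorkshire 4 MRPL40 had -0.092, and without Korean native pig 1 MRPL46 had -0.031. MRPL28 had -0.19 with a standard error of 0.21, and 0.15 within the arrays of bright hybridisation controls against -0.53 within the dim ones.

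The small subunit gene of smallest p was MRPS21, the counterpart of a bacterial protein of the decoding subunit. Its signals were 5776, 5096, 4961 and 5093 in Korean native pigs and 4534, 4443, 3458 and 4277 in Yorkshire pigs. Every Korean native pig was above every Yorkshire pig. MRPS21 was the only member of the 58 whose breeds did not overlap, against 2.25% of all genes tested, 1.14% in that direction, and 2.56% of all probe sets. The means were 5231 ± 368.3 and 4178 ± 491.5 (SD, n = 4 each). The change was 0.33 with a standard error of 0.16 and an interval from -0.03 to 0.68 (limma, unadjusted p = 0.0685, adjusted p = 0.999). It was 0.43 within the arrays of bright hybridisation controls, 0.22 within the dim ones, and 0.24 to 0.37 when any 1 animal was left out.

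The 5 MRPS genes of smallest p on the lower side were MRPS24, MRPS23, MRPS9, MRPS30 and MRPS11. MRPS24 had signals of 1170.4, 1446, 1152 and 908 in Korean native pigs and 1178, 1515, 1428 and 1739.8 in Yorkshire pigs. Korean native pig 4 was the lowest and Yorkshire 4 the highest. Its change was -0.32 with a standard error of 0.20 and an interval from -0.76 to 0.12 (limma, unadjusted p = 0.136). MRPS23 had signals of 244.5, 256.8, 294.8 and 256.2 against 333.3, 284.3, 310.8 and 413.6, and only Korean native pig 3 reached into the range of the Yorkshire pigs. Its change was -0.31 with a standard error of 0.21 (limma, unadjusted p = 0.176). MRPS30, which carries a small subunit name but sits in the large subunit, had signals of 283.4, 242.6, 434.1 and 358.0 against 378.9, 413.4, 402.5 and 399.6. The Yorkshire pigs were nearly level and the Korean native pigs lay on both sides of them. Its change was -0.28 with a standard error of 0.22. MRPS9 had -0.31 (standard error 0.25) and MRPS11 had -0.20 (standard error 0.22). Without Yorkshire 4 MRPS11 had -0.069, and without Korean native pig 3 MRPS9 had -0.16.

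The other 4 small subunit genes named for their p on the higher side were MRPS28 with a change of 0.19 (standard error 0.23), MRPS5 with 0.15 (0.29), MRPS25 with 0.12 (0.20) and MRPS14 with 0.02 (0.24). MRPS5 is the counterpart of a bacterial protein that lines the entry of the messenger RNA. The estimate of each of the 4 was smaller than its standard error. The remaining members lay in a narrower band. The other 14 MRPL genes ranged from -0.19 for MRPL24 to 0.11 for MRPL53, and included MRPL1, MRPL2, MRPL9, MRPL10, MRPL13, MRPL15, MRPL17, MRPL35, MRPL37, MRPL39, MRPL48 and MRPL50. The other 7 MRPS genes ranged from -0.16 for MRPS10 to 0.01 for MRPS36. Among them was MRPS12, a protein of the decoding centre, with -0.10, and the others were MRPS2, MRPS7, MRPS22 and MRPS35.

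**Figure D2:**
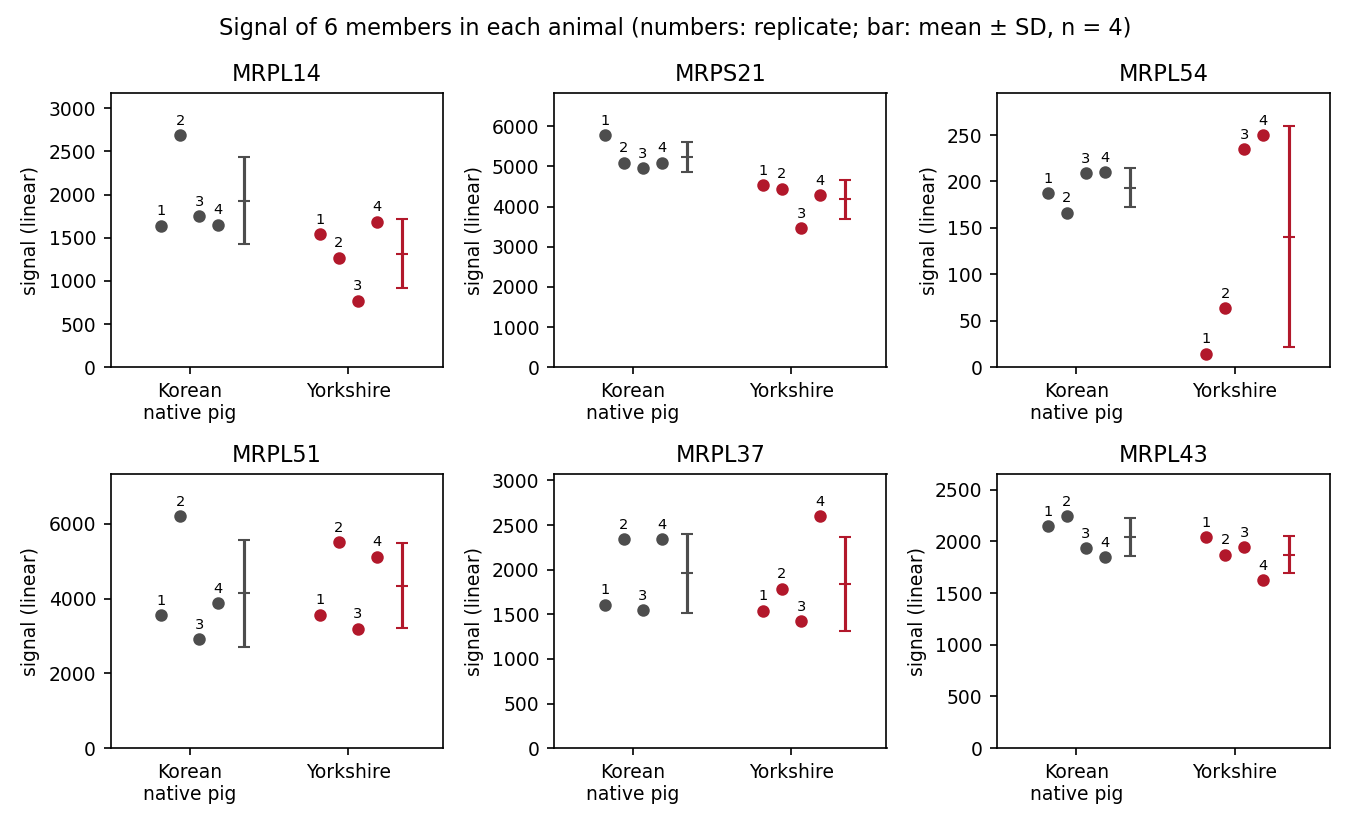
Linear signal of 6 members in each animal, with the replicate number above each point and the mean ± SD of 4 animals as a bar beside them. MRPS21 has every Korean native pig above every Yorkshire pig, MRPL54 has Yorkshire 1 and Yorkshire 2 at 14.3 and 63.3, MRPL51 and MRPL37 are higher in replicates 2 and 4 of both breeds, and MRPL43 varies least.

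The spread between animals of the same breed was lower for most members than for the typical probe set. The SD of log2 signal, pooled over the breeds, had a median of 0.28 over the members, with 0.28 for each subunit, against 0.39 over all probe sets and 0.36 over all genes tested, each gene taken by its brightest probe set. It was below 0.39 for 45 of the 58 members, 26 of 36 MRPL and 19 of 22 MRPS, and for 3070 of the 5331 genes. The ratio of the highest to the lowest signal over the 8 animals had a median of 1.77 for the members, 2.19 for all genes and 2.43 for all probe sets. The members were also brighter, with a median log2 signal of 10.34 against 8.64, and bright probe sets vary less on this array. Among the probe sets of like brightness, at log2 9.34 to 10.93, the median SD was 0.32, and 34 of the 58 members were below it. With each array centred on its median, the median SD of the members was 0.36, that of all probe sets 0.39, and that of like brightness 0.33, with 26 members below the last. The lower spread of the members therefore held against the whole array under each scaling, and against probe sets of like brightness it turned around under array centring. The median SD of the members was 0.28 within Korean native pigs and 0.27 within Yorkshire pigs, and 31 of the 58 genes had the larger SD in Yorkshire pigs. Low spread was not particular to the members. The median pooled SD was 0.25 for 63 nuclear respiratory chain genes and 0.24 for 61 cytosolic ribosomal protein genes. These lists were brighter than the members, with median log2 signals of 13.09 and 14.87.

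By its representative probe set, the steadiest member was MRPL43, a large subunit protein with no bacterial counterpart. Its signals were 2147, 2242, 1934 and 1845 in Korean native pigs and 2040.4, 1869.6, 1945 and 1622 in Yorkshire pigs, and the breeds overlapped. The pooled SD was 0.13, at percentile 1.49 of all probe sets tested, and the change was 0.13 with a standard error of 0.17. A further tested probe set of MRPL43, at a mean log2 signal of 9.56 against 10.95, had a larger standard error of 0.31. Its correlation with the representative over the 8 arrays was 0.02, so the low spread of MRPL43 is that of 1 probe set. MRPL19 had an SD of 0.15 and a change of 0.09, and MRPL45, which tethers the ribosome to the inner membrane near the exit of the peptide tunnel, had an SD of 0.17 and a change of 0.13. Among MRPS genes the steadiest were MRPS21 with an SD of 0.14, MRPS17 with 0.15 and MRPS27, a pentatricopeptide repeat protein, with 0.16. The changes of MRPS17 and MRPS27 were -0.03 and -0.11.

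The 4 members of largest SD, MRPL54, MRPL4, MRPL36 and MRPS34, had a mean log2 signal below the members' median. MRPL54 had a pooled SD of 0.89, at percentile 95.1, made up of 0.14 within Korean native pigs and 1.25 within Yorkshire pigs. MRPL4 had signals of 86.2, 320.0, 266.6 and 307.6 in Korean native pigs and 225.9, 366.6, 138.8 and 399.6 in Yorkshire pigs, with an SD of 0.69. Korean native pig 1 was below the negative control level, and Yorkshire 3, the other animal with a high 3' to 5' ratio, was the next lowest. The change was -0.21 with an interval from -1.09 to 0.67. Without Korean native pig 1 it was 0.16 and without Yorkshire 3 it was -0.47. MRPL36, the counterpart of a small zinc-binding bacterial protein, had signals of 364.7, 766.6, 409.2 and 357.9 against 517.5, 336.6, 414.2 and 1161, with an SD of 0.63. Yorkshire 4 and Korean native pig 2 stood above the others, and without Yorkshire 4 the change of -0.25 became 0.11. MRPS34, at an SD of 0.57, was the most variable MRPS gene, followed by MRPS5 with 0.42 and MRPS26 with 0.40.

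**Figure D3:**
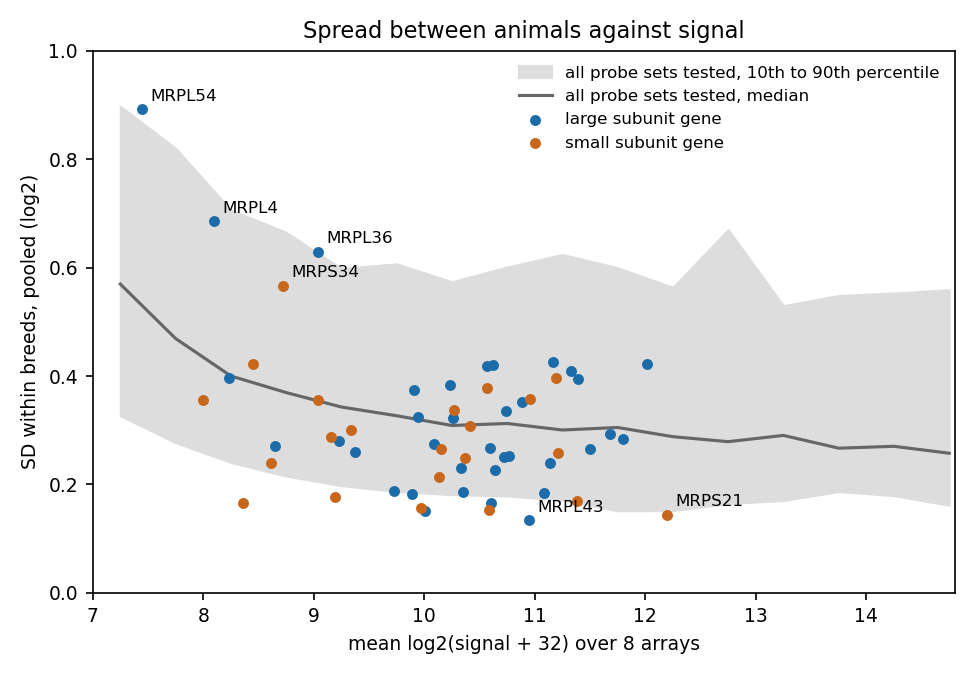
The SD of log2(signal + 32) within breeds, pooled over 4 animals of each, against the mean log2 signal for the 58 members (points) and for all probe sets tested (grey line, median; grey band, 10th to 90th percentile). Of the 58 members, 45 lie below 0.39, the median over all probe sets tested at any signal. Among the others, MRPL54, MRPL4, MRPL36 and MRPS34 have the largest SDs.

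The median level of the members differed between animals of 1 breed. In each animal the median deviation of the 58 genes from their own means was 0.06 in Korean native pig 1, 0.18 in Korean native pig 2, -0.11 in Korean native pig 3 and -0.13 in Korean native pig 4. In Yorkshire pigs 1 to 4 it was -0.08, 0.10, -0.07 and 0.12. Korean native pig 2 had 46 of the 58 genes above their own mean, and Korean native pig 4 had 14. Animals of both breeds were found on both sides, and the means of these medians, -0.00 for Korean native pigs and 0.02 for Yorkshire pigs, lay closer together than the SDs of 0.15 and 0.11 within the breeds (n = 4 each). The medians of the animals spanned 0.32 for the members. For all probe sets tested they spanned 0.12, and for lists of a size near that of the members 0.35 (nuclear respiratory chain, 63 genes) and 0.41 (cytosolic ribosomal proteins, 61 genes). Both subunits had their highest median in Korean native pig 2, 0.21 for MRPL and 0.16 for MRPS. MRPS had its lowest median in Korean native pig 4 at -0.20, where 3 of 22 genes were above their mean, and MRPL had its lowest in Yorkshire 1 at -0.11. With each array centred on its median, Korean native pig 2 stood at 0.41 and Yorkshire 3 at -0.22.

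**Figure D4:**
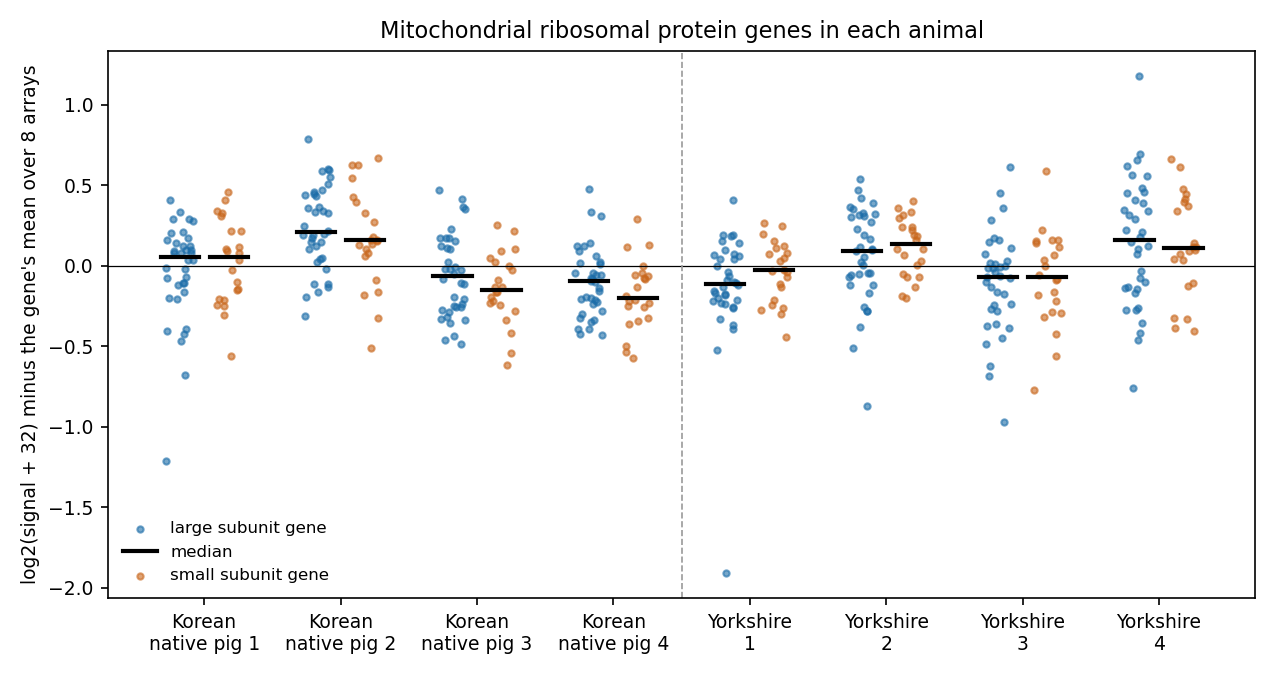
Deviation of each gene from its own mean over 8 arrays (log2 scale) in each animal, with MRPL genes at the left and MRPS genes at the right of each position and black bars at their medians. Korean native pig 2 is highest, with medians of 0.21 and 0.16, and Korean native pigs 3 and 4 lie below 0.

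Levels also differed between the arrays of bright and of dim hybridisation controls. Of the 58 genes, 41 had a higher mean on the dim arrays, with a median bright minus dim difference of -0.11, against a median of 0.05 and 6469 of 14399 for all probe sets tested. It was -0.14 for MRPL and -0.08 for MRPS. The nuclear respiratory chain list had 38 of 63 genes higher on the dim arrays, with a median difference of -0.06. The cytosolic ribosomal proteins had 36 of 61, with a median of -0.04. Not every array followed the shift of the members. The members' median deviation was -0.13 on the dim array of Korean native pig 4, the lowest of the 8 arrays, and 0.06 on the bright array of Korean native pig 1. For 4 members every dim array was above every bright one, against 2.89% of all probe sets and 3.38% of genes, and for 0 members the reverse held, against 3.85% of probe sets. The 4 were MRPL4, MRPL37, MRPL51 and MRPL53, with bright minus dim differences of -0.93, -0.55, -0.63 and -0.63. MRPL51, a protein specific to mitochondria, had signals of 3549, 6200.3, 2920.3 and 3880.0 in Korean native pigs and 3573, 5504, 3193 and 5121 in Yorkshire pigs. Replicates 2 and 4 were above replicates 1 and 3 in both breeds, though Korean native pig 4 had a deviation of -0.08 from the gene's own mean. MRPL37 had 1608, 2341, 1545 and 2342 against 1541, 1787, 1426 and 2599, and MRPL53 had 1719, 3444, 2101 and 2474 against 2066, 2926, 1459 and 2566. What set the hybridisation controls apart was not tested. Within the bright arrays the median breed difference was 0.06 for MRPL and -0.00 for MRPS, and within the dim arrays it was -0.09 and -0.20. The sign was the same in both for 33 of the 58 genes.

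Further probe sets for the same genes gave a check on single values. Of the members, 44 had 1 probe set and 14 had several, which added 19 probe sets, 14 of them bright enough to test. For 7 of these 14 the change had the opposite sign to the representative. They belonged to MRPL3 (0.24 and -0.10), MRPL18 (-0.07 and 0.17), MRPL32 (0.04 and -0.24), MRPL38 (0.11 and -0.23), MRPL43 (0.13 and -0.19), MRPL52 (0.11 and -0.21) and MRPS9 (-0.31 and 0.06). MRPL3 had another tested probe set, brighter than its opposite one (mean log2 9.89 against 7.33), at 0.22. The smallest unadjusted limma p among the 14 was 0.357. The correlation between a further probe set and its representative over the 8 arrays, which share their scaling, had a median of 0.22 and ran from -0.48 for MRPS9 to 0.70 for MRPL52. The levels of the members are not ranked against each other here, because the signal of a probe set depends on the probe as well as on the RNA. The other genes named as the best measured were MRPL30, with a change of 0.05, MRPL33 with -0.14, and MRPS15 with -0.02.

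The rest of the pathway was read from gene lists. None of its genes passed the adjusted threshold (limma, smallest adjusted p = 0.999). The genes named below are the 2 of smallest p in each list, and 3.43% of all genes tested had an unadjusted limma p under 0.05. Among 4 other proteins of the mitochondrial ribosome, 2 were higher in Korean native pigs and 2 lower. PTCD3, of the small subunit, had 0.16 (standard error 0.18) and GADD45GIP1, of the large subunit, had -0.24 (0.27). Of 8 translation factors and membrane insertase genes 5 were higher and 3 lower, with a median of 0.10. The elongation factor GFM1 and the release factor MTRF1L each had 0.29, with standard errors of 0.26 and 0.27, and without Yorkshire 4 they had 0.04 and 0.10. Of 9 tested aminoacyl-tRNA synthetase genes and partners 3 were higher and 6 lower, with a median of -0.13. GATC, a subunit of the amidotransferase that completes glutaminyl-tRNA, had 0.46 with a standard error of 0.20 (limma, unadjusted p = 0.0401). KARS, the lysyl-tRNA synthetase of both cytosol and mitochondria, had 0.37 with a standard error of 0.18.

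Of 12 genes for ribosome assembly and mitochondrial RNA, 4 were higher and 8 lower, with a median of -0.11. MRM2, which methylates the RNA of the large subunit, had signals of 576.4, 590.2, 550.4 and 717.9 in Korean native pigs and 402.8, 395.4, 313.2 and 437.0 in Yorkshire pigs. Every Korean native pig was above every Yorkshire pig. It was the only 1 of the 12 genes whose breeds did not overlap, against 2.25% of all genes tested, and the only 1 at an unadjusted limma p under 0.05. The change of MRM2 was 0.61 with a standard error of 0.20 and an interval from 0.18 to 1.05 (limma, unadjusted p = 0.00945, adjusted p = 0.999), and it was 0.52 to 0.67 when any 1 animal was left out. MTERF3, which acts in ribosome assembly, had 0.32 with a standard error of 0.19. Of 6 transcription genes and regulators 3 were higher and 3 lower. PPARGC1A, a coactivator that drives the making of mitochondria, had signals of 510.2, 745.1, 685.4 and 694.1 against 818.0, 1428, 3478 and 683.1. Yorkshire 3 was far above all others and Yorkshire 4 was within the range of the Korean native pigs. The change was -0.96 with a standard error of 0.41 (limma, unadjusted p = 0.0381), and without Yorkshire 3 it was -0.49. TEFM, the elongation factor of mitochondrial transcription, had 0.22 with a standard error of 0.27.

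The products of this ribosome could not be read, since 0 of the 13 mitochondrially encoded subunits had a probe set with exactly 1 symbol. Nuclear genes of the respiratory chain and ATP synthase, which this ribosome does not translate, were read instead. Of 63 nuclear genes named for the respiratory chain and ATP synthase, including assembly factors that share the prefix, 19 were higher in Korean native pigs and 44 lower, with a median of -0.09, and limma gave 0 at an unadjusted p under 0.05. NDUFAF2, an assembly factor of complex I, had 0.55 (standard error 0.33), and NDUFA7, a subunit of it, had -0.32 (0.20). Without Yorkshire 4 they had 0.23 and -0.16. Between arrays of bright controls the median change of the 63 genes was 0.00, and between arrays of dim controls it was -0.16. The sign was the same in both for 34 of the 63. The median deviation of this list in Korean native pigs 1 to 4 was 0.03, 0.13, -0.08 and -0.21, and in Yorkshire pigs it was -0.14, 0.14, 0.10 and 0.09. It took the sign of the mitochondrial ribosomal proteins in all animals but Yorkshire 3. The list of cytosolic ribosomal proteins, which build the ribosome outside mitochondria, was taken by symbol prefix. It also holds related symbols, such as RPS19BP1 and RPL7L1. Of its 61 tested genes 46 were higher and 15 lower, with a median of 0.05 and 2 genes at an unadjusted limma p under 0.05. These were RPL37 with 0.65 (standard error 0.23) and RPL22L1, whose symbol falls under the same prefix, with 0.44 (0.16). Of all genes tested, 3.43% were under that limma p. Between arrays of bright controls the median change of the cytosolic list was 0.18, and between arrays of dim controls it was -0.08. For 18 of the 61 genes the sign was the same in both. The split of signs in either list under other scalings was not tested. The median deviations of the cytosolic list were 0.21, 0.06, -0.03 and -0.12 in Korean native pigs and -0.09, -0.16, -0.10 and 0.25 in Yorkshire pigs. They were of opposite sign to the mitochondrial ribosomal proteins in Yorkshire 2.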

How the data were processed

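Total RNA of 8 longissimus dorsi samples was measured on porcine Affymetrix arrays of 1 colour, 4 per breed. The authors deposited an intensity on a linear scale for each probe set and array. The submitters' processing notes name GCOS 1.3, and the sources used here do not give the summarisation method or the scaling target. Leaving out the 2% of values at each end, the mean was 500.1 to 500.2 on every array, so each change is relative to the rest of its array. Of 24123 probe sets, 10099 had 1 symbol in GEO's platform annotation, which can be old, 198 had several and 13826 had none. By gene number, 57 of the 58 members were found in the Sscrofa11.1 gene table with the same symbol. A further 6 probe sets that list an MRPL or MRPS symbol beside other entries were left out.

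Values were taken as log2(signal + 32). The 124 control probe sets and the 40% of the others with the lowest mean (below a signal of 98.6) were left out, which left 14399. Array medians differed by at most 0.379 (log2), so the deposited scaling was kept. limma 3.58.1 in R 4.3.3 (lmFit, eBayes with intensity trend) was fitted without covariates on all 8 arrays, with Benjamini-Hochberg adjustment and a threshold of 0.05. The scripts were tested on simulated data. The number of arrays limits the precision, and each p-value sets the breed difference against the spread between these animals within the breeds.

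Named genes were, in each subunit, the 5 of smallest p in each direction, the 3 of largest and the 3 of smallest SD and the 3 of highest mean signal. Members with a further tested probe set of opposite sign and the 2 genes of smallest p of each related list were named too. MRPL37, MRPL53 and MRPS36, and members given only as the ends of a range or for their role, fall outside this rule and were chosen after their values were seen. The members, the lists and the tests were chosen with earlier results of these data known. Alternatives changed the pseudocount, filter, scaling, moderation, blocks, probe set rule and arrays. Promoter sequences were not analysed here.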

Additional observations from a re-analysis of the deposited data

Results flagged for a closer look

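In each of the 116 groups of 4 animals (58 genes in 2 breeds), the gap between the highest or lowest signal and the nearest other was set against the range of the group, with Dixon's 95% critical value for 4 samples as the limit. It was passed in 5 groups, 4.31%, where chance flags about 1 in 20. MRPL4 was low in Korean native pig 1, at 86.2 against 266.6 to 320.0 in the other 3 animals. MRPL14 was high in Korean native pig 2, at 2687 against 1639 to 1748. In the same animal MRPS11 was at 1615 against 1115 to 1161 and MRPS14 at 3031 against 1664 to 1778. MRPL38 was high in Yorkshire 4, at 1219.9 against 804.4 to 848.8.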

How the results depend on the processing

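Under every alternative run, 0 of the 58 members passed the adjusted threshold, and the lowest adjusted p (limma) of any of the 51 named genes was 0.964. The count of members at an unadjusted p under 0.05 was 1 in place of 0 with no filter, with the dimmest 20% left out, with robust moderation, with the replicate block and with hybridisation control brightness as a block. The gene was MRPL14 each time, with limma p from 0.0402 to 0.0497. With quantile normalisation the gene was MRPS21, with a change of 0.34. Leaving out 1 animal gave 0 to 1, with MRPL14 counted without Yorkshire 1 (a change of 0.66) and without Yorkshire 4 (0.70). Same-numbered animals of the breeds had correlations of their deviations of -0.04, 0.31, 0.10 and 0.05. Animals of different number had -0.42 to 0.36, so the deviations did not set same-numbered animals apart. The numbers were not taken as pairs in the main fit. The hybridisation controls of replicates 1 to 4 were at log2 13.39, 12.76, 13.46 and 12.46 in Korean native pigs. In Yorkshire pigs they were at 13.40, 12.76, 13.65 and 12.45. Whether same-numbered arrays were handled together was not tested. The replicate block called 1 probe set over the array, NR4A3 (limma adjusted p = 0.00943). The median SD of the members was 0.36 with array centring and 0.23 within the arrays of bright hybridisation controls, and 0.27 to 0.30 without 1 animal. The median change of MRPS was -0.20 within the dim arrays. Without 1 animal the MRPS median ran from -0.13 to 0.01, the MRPL median from -0.09 to 0.04, and the count inside 2-fold from 53 to 56.

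Changing the filter or the moderation leaves each estimate as it is. So does adding a block, because each block held both breeds equally. No sign could turn under these alternatives, and their values are counted among those that kept direction. Of 751 values of named genes under the 15 alternatives other than leaving out an animal, 726 kept direction and side of the threshold and 25 changed sign, and the cause was not tested. These were MRPS14 (-0.00591) with quantile normalisation, and MRPL18 (0.00817), MRPS15 (0.055), MRPS17 (0.050) and MRPS26 (0.030) with array centring. Within the bright arrays they were MRPL28 (0.15), MRPL32 (-0.31), MRPS14 (-0.18), MRPS26 (0.16), MRPS27 (0.028), MRPS34 (0.014) and GADD45GIP1 (0.054). Within the dim arrays they were MRPL30 (-0.10), MRPL45 (-0.050), MRPL52 (-0.17), MRPS15 (0.019), MRPS17 (0.075) and PTCD3 (-0.000636). Without Korean native pig 1 and Yorkshire 3, which had a high 3' to 5' ratio, they were MRPL30 (-0.00409) and MRPL52 (-0.16). With the mean over all tested probe sets of a gene they were MRPL18 (0.049), MRPL32 (-0.10), MRPL38 (-0.057), MRPL43 (-0.033) and MRPL52 (-0.052). Among members, signs were followed only for the 37 that were named, and members not named, many with changes near 0, were not checked. Leaving out 1 animal turned the sign of 13 of the 37, with ranges of -0.47 to 0.16 for MRPL4, -0.18 to 0.012 for MRPL18, -0.082 to 0.20 for MRPL30, -0.11 to 0.20 for MRPL32, -0.49 to 0.11 for MRPL36, -0.30 to 0.056 for MRPL51, -0.038 to 0.33 for MRPL52, -0.044 to 0.30 for MRPS5, -0.18 to 0.15 for MRPS14, -0.086 to 0.054 for MRPS15, -0.083 to 0.051 for MRPS17, -0.00869 to 0.19 for MRPS25 and -0.16 to 0.15 for MRPS26. The sign of 30 of the 51 genes was kept throughout. Leaving out 1 animal shrank the change by over 1.5 times, or turned it, in 33 of the 37 named members, all but MRPL11, MRPL58, MRPS21 and MRPS23, and in 7 of the 14 other named genes. Signals near the negative control level limit MRPL4 and MRPL54.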
